A study of Mus musculus with 4 samples.

Results

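The 10 genes described here encode the 3 chains of complement C1q (C1qa, C1qb and C1qc) and 7 receptors or soluble proteins of apoptotic cell and particle uptake: Mertk, Axl, Timd4, Cd5l, Marco, Fcna and Siglec1. They were taken by symbol from the 45101 probe sets of a mouse Affymetrix array, of which 16 carried 1 of these symbols, so the group is 10 of 18193 named genes. Of the 10, 6 had 1 probe set and 4 had several, and the probe set with the highest mean value stood for a gene. The genes were chosen by name after the differences between these same arrays were known, chiefly the lower values in Trib1-/- MDP, so their values are a description and support nothing. RNA came from granulocyte monocyte progenitors (GMP) and from cells titled MDP, whose cell type label reads macrophage dendritic cell. Both were sorted, without treatment, from wild-type mice and from Trib1-/- mice. All 4 groups shared the mixed C57BL6J/129SV background. Each group was 1 array, and the sources used here do not give the ages, the number of animals pooled, the sort gates or how the Trib1-/- allele was made. With 1 array per group there was no replicate and no test was possible, so differences are given as log2 differences or folds of single arrays with no p-value, and the number of arrays limits the precision.

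C1q is the recognition part of the classical complement pathway. Its 3 chains are encoded by neighbouring genes and assemble into a bouquet-shaped molecule that binds immune complexes and dying cells, and macrophages are a main source of it. Mertk and Axl are receptor tyrosine kinases of the TAM family, which bind phosphatidylserine on dying cells through the bridging proteins Gas6 and protein S. Timd4 binds phosphatidylserine directly, Marco is a class A scavenger receptor, Fcna (ficolin A) is a soluble lectin that can start the lectin pathway of complement, Cd5l is a secreted scavenger receptor protein of macrophages, and Siglec1 is a receptor for sialic acid. Most of these genes are known from mature tissue macrophages rather than from progenitors.

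The values are RMA values, taken as log2, and the 4 array medians lay between 3.27 and 3.31. The median of the whole table, 3.29, served as a floor: values below it are in the lower part of all values of the table, where RMA values lie near background and folds are uncertain. A gene was counted as apart where the log2 difference was at least 1, that is 2-fold. Trib1, the targeted gene, read 4.85 in wild-type GMP, 5.19 in knockout GMP, 5.13 in wild-type MDP and 4.71 in knockout MDP by its first probe set, and 4.95, 5.10, 5.99 and 5.56 by its second. It was not lower on the GMP array labelled Trib1-/-, and where its probes lie relative to the deletion is not known here. The gene is therefore no check of the labels, and "knockout" means the array labelled Trib1-/- throughout. Of the markers of the MDP label, Csf1r read 5.997 and 6.01 on the wild-type and knockout GMP arrays against 7.82 and 7.81 on the MDP arrays, and Flt3 read 2.95 and 2.66 against 4.85 and 5.50. Cx3cr1 lay between 5.06 and 5.67 on all arrays. Kit, at 6.01 and 5.39 in GMP, read 2.43 and 2.69 in MDP, below the floor on both MDP arrays. In bulk RNA, fewer cells of a type and less RNA per cell cannot be told apart.

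Wild-type MDP was the array on which most of the genes read highest. Of the 10, 9 had their highest value there and the tenth, Timd4, had it in knockout MDP, while 28.3% of all genes were highest in wild-type MDP. Siglec1 counts among the 9 by 0.03 only, and its other probe sets were highest in knockout GMP and in knockout MDP. C1qa counts by 0.18, with all its values below the floor. The wild-type MDP value lay at least 2-fold above each of the other 3 arrays for 6 of the 10 (C1qb, Fcna, Axl, Cd5l, C1qc and Mertk). Over all named genes 53 of 18193 (0.291%) did so. Leaving wild-type MDP aside, the other 3 arrays spanned less than 1 log2 unit for all 10 genes. In wild-type MDP the median of the 10 was 3.38, close to the floor. On that array 7 of the 10 reached the floor, as did 58.0% of all genes. Of the 7, 4 reached it on that array alone. The other 3 of the 10 (C1qa, C1qc and Cd5l) were below it on every array. Only Mertk and Timd4 were above it on all 4. A gene that reached the floor on wild-type MDP alone had to read higher there, so a count over the 7 is no evidence of a difference.

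**Figure D1:**
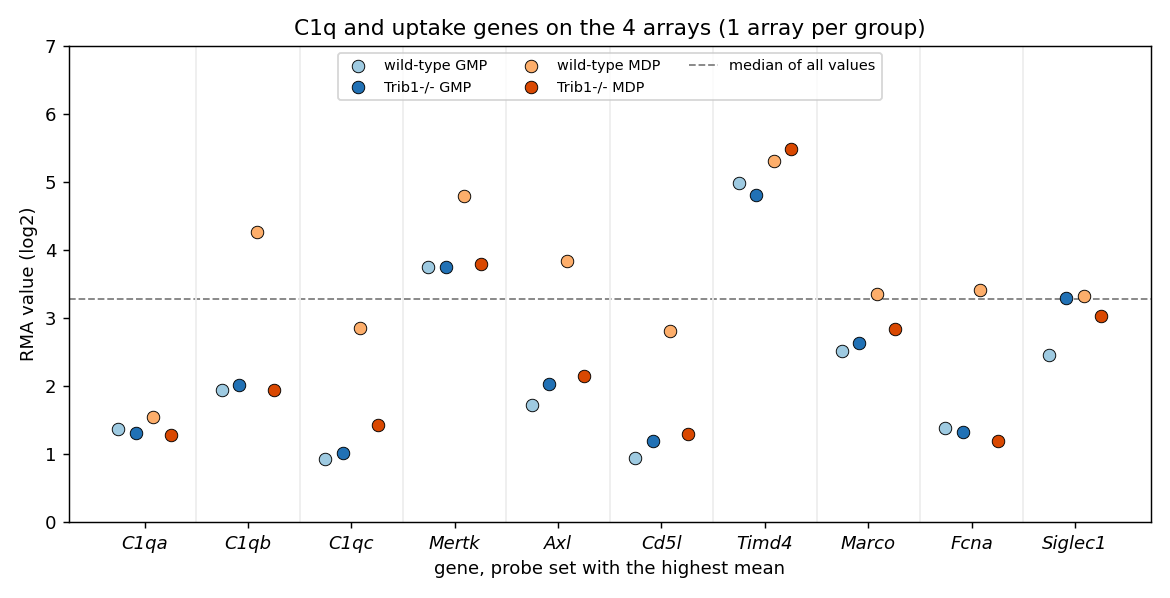
RMA value (log2) of each gene's representing probe set on each of the 4 arrays, 1 point per array, with the median of all values (3.29) as a dashed line. The wild-type MDP point stands above the other 3 for 9 genes, for Siglec1 by 0.03 only. For C1qa, C1qc and Cd5l all 4 points lie below the line.

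The first comparison asks how loss of Trib1 went with the expression of these genes in MDP. In knockout MDP 9 of the 10 read lower than in wild-type MDP (51% of all genes did), and 6 were at least 2-fold lower: C1qb 5.02-fold, Fcna 4.67-fold, Axl 3.23-fold, Cd5l 2.86-fold, C1qc 2.67-fold and Mertk 2.01-fold. None was at least 2-fold higher. Over all 18193 genes 1.45% were at least 2-fold lower in this comparison and 0.923% at least 2-fold higher. The rule that put the genes together used this contrast, so their share is not read against that background. The median difference over the 10 was -1.21, against -0.01 over all genes. Of the 6, Mertk alone was above the floor in knockout MDP. When values under the floor were raised to it, 1 of the 10, Mertk, was at least 2-fold lower (all genes 0.44%) and the median was -0.05. Mertk lay just inside the 2-fold limit, at a log2 difference of -1.01 (-0.99 after cyclic loess normalization of the arrays), and Marco was the nearest outside it, at -0.51.

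Among the C1q chains, C1qb read 1.94 in wild-type GMP, 2.02 in knockout GMP, 4.27 in wild-type MDP and 1.94 in knockout MDP by the probe set that represents it (1437726_x_at). Wild-type MDP was high and the other 3 arrays lay within 0.08 of each other. The second probe set (1434366_x_at) read 1.37, 1.05, 2.87 and 1.44 in the same order, below the floor on all arrays. It was 1.42 lower in knockout than in wild-type MDP on the log2 scale. The third (1417063_at) read 1.003, 0.98, 1.295 and 1.09, a difference of -0.21. Thus the high reading came from the 2 C1qb probe sets whose suffix marks probes that can match other transcripts, and the probe set without that suffix read low on every array. C1qc, with 1 probe set, read 0.93 and 1.01 in wild-type and knockout GMP, 2.85 in wild-type MDP and 1.43 in knockout MDP. Its wild-type MDP value again stood apart, by 1.42 from the next array, though below the floor. C1qa read 1.36, 1.31, 1.55 and 1.29 in that order. Its whole range over the 4 arrays was 0.26, with all values below the floor. The SD between probe sets of 1 gene in the MDP comparison was larger, at 0.383. That SD covers probe sets that reached the floor and is no spread between arrays, so whether the A chain differed cannot be told. Once values under the floor were raised to it, the MDP genotype difference of C1qb was -0.98, and C1qa and C1qc had none.

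C1qa, C1qb and C1qc follow each other on chromosome 4 in the order C1qb, C1qc, C1qa, with no other protein coding gene between them. The start regions of C1qb and C1qc are shown because both genes read higher in wild-type MDP than on the other arrays, C1qc below the floor throughout. That of Fcna follows, the gene with the largest difference between the MDP genotypes after C1qb. These regions are RefSeq sequences of build GRCm38.p6 from 250 bases before to 50 after the annotated start, written on the strand of the gene. Capitals mark matches to GAGGAA (the core bound by ETS factors such as PU.1) or to TGCTGAC (part of a Maf recognition element), on either strand.
C1qb, chr4:136886151-136886450, minus strand: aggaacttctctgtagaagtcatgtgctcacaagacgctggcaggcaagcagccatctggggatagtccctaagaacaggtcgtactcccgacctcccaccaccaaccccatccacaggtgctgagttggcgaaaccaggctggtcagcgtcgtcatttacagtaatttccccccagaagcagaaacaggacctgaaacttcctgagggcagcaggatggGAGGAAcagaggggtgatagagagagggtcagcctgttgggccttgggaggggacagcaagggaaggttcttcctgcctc
C1qc, chr4:136892865-136893164, minus strand: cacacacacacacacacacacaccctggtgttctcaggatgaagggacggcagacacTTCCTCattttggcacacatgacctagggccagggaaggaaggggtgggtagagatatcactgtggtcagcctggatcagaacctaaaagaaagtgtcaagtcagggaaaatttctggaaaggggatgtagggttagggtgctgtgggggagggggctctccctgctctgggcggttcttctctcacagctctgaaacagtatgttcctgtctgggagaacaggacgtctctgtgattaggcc
Fcna, chr2:25627925-25628224, minus strand: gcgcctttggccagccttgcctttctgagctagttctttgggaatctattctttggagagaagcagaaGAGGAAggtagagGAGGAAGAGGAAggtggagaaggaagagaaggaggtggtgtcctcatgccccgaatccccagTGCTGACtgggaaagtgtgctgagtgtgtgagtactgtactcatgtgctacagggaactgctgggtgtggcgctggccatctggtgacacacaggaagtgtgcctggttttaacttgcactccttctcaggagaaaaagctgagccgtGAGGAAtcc
The C1qb stretch held 1 GAGGAA match, which begins at position -30 from the start, and that of C1qc held 1, on the opposite strand. In the Fcna stretch there were 4 GAGGAA matches, of which a pair is adjacent, and 1 TGCTGAC match. Of the 10 genes 8 were matched in the promoter table (all but C1qa and Siglec1). GAGGAA was present in 6 of these 8 (all but Mertk and Timd4) and in 28.3% of all 32851 stretches of 300 bases, and TGCTGAC in 2 of 8 (Fcna and Timd4) and 4.67%. TTGCNNAA, a C/EBP motif, was in 0 of 8 and 10.8%, the AP-1 motif (TGACTCA or TGAGTCA) in 0 of 8 and 5.2%, and the LXR motif DR4 (AGGTCA repeated after 4 bases of any kind) in 0 of 8 and 0.0152%. No motif overlapped one of another kind in these 3 stretches. A match describes the letters of the window and is neither a site nor a cause.

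The TAM receptors both read high in wild-type MDP alone. Mertk, the main TAM receptor for dying cells on macrophages, read 3.75 in wild-type GMP, 3.75 in knockout GMP, 4.798 in wild-type MDP and 3.79 in knockout MDP. The 3 arrays other than wild-type MDP lay within 0.04 of each other, all above the floor, so raising low values left the difference at -1.01. Axl read 1.72, 2.03, 3.84 and 2.15 in the same order by its representing probe set, a difference of -1.69 between the MDP genotypes, or -0.55 once values below the floor were raised. Its other probe set (1438621_x_at) read between 0.47 and 0.53 on all arrays and did not separate them. Tyro3, the remaining TAM receptor, was below the floor on every array, at 1.96, 1.72, 1.82 and 2.10.

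Of the other surface receptors none was 2-fold apart between the MDP genotypes. Timd4, which tethers cells that expose phosphatidylserine, read 4.98 in wild-type GMP, 4.81 in knockout GMP, 5.31 in wild-type MDP and 5.49 in knockout MDP. It was the only gene of the 10 with a higher value in knockout than in wild-type MDP, by 0.17. Marco, the scavenger receptor, read 2.52, 2.63, 3.35 and 2.84, so that wild-type MDP was highest and alone above the floor. Its second probe set read 1.35, 1.83, 1.52 and 1.52 and was not highest in wild-type MDP. Siglec1 read 2.45 in wild-type GMP and 3.29, 3.32 and 3.03 in knockout GMP, wild-type MDP and knockout MDP, with wild-type GMP low and the other 3 close together. Its 2 other probe sets were below the floor on all arrays and gave MDP genotype differences of 0.24 and 0.59, opposite in sign to the -0.29 of the first.

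The soluble members read like C1qb and C1qc. Fcna read 1.38 in wild-type GMP, 1.33 in knockout GMP, 3.42 in wild-type MDP and 1.20 in knockout MDP. Wild-type MDP, high by 2.03 over the next array, was only just above the floor, and with low values raised to it the difference of -2.22 between the MDP genotypes became -0.13. Cd5l read 0.95, 1.20, 2.81 and 1.29 in that order, with all values below the floor and wild-type MDP higher than the next array by 1.52. Fcnb, the ficolin of granulocytes and monocytes, read 3.05, 3.30, 2.71 and 2.60, a difference of -0.12 between the MDP genotypes.

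**Figure D2:**
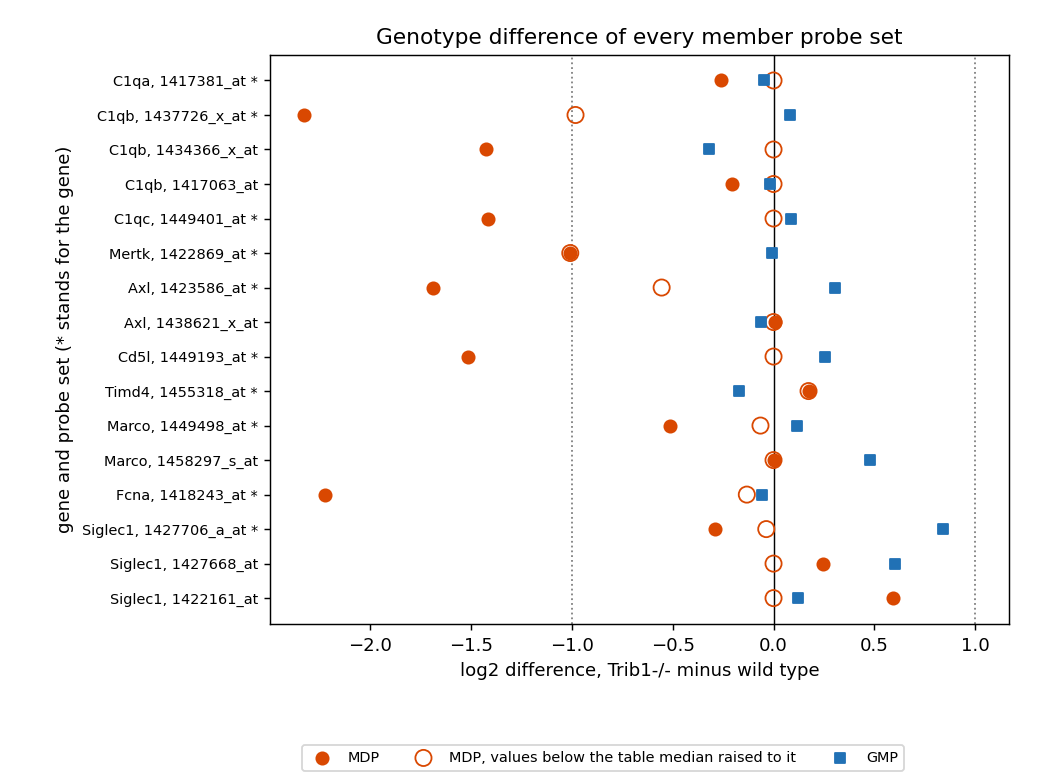
Log2 difference between Trib1-/- and wild type for each of the 16 probe sets, in MDP (filled circles), in MDP with values below the table median raised to it (open circles) and in GMP (squares); dotted lines mark 2-fold and an asterisk the probe set that stands for its gene. In MDP 7 probe sets lie at or beyond -1, all but that of Mertk move to the right of the line when low values are raised, and no GMP square reaches a dotted line.

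In GMP the same genes did not separate the genotypes at 2-fold. Of the 10, 0 were at least 2-fold lower and 0 at least 2-fold higher in knockout GMP, where 2.22% and 0.5% of all genes were, and the median difference was 0.08. Siglec1 had the largest difference, 0.84, which became 0.0069 with low values raised to the floor, and the differences of its other probe sets were 0.60 and 0.12. That of Axl was 0.31, Cd5l 0.25, Marco 0.12, C1qc 0.09, C1qb 0.08, Mertk -0.01, C1qa -0.05, Fcna -0.06 and Timd4 -0.17. A lower value in knockout GMP could hardly be measured for most of them, since 7 of the 10 were below the floor on both GMP arrays and only Mertk and Timd4 were above it in wild-type GMP. Of all genes, 57.5% were at or above the floor in wild-type GMP. The difference between the MDP and the GMP genotype effect was not tested.

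**Figure D3:**
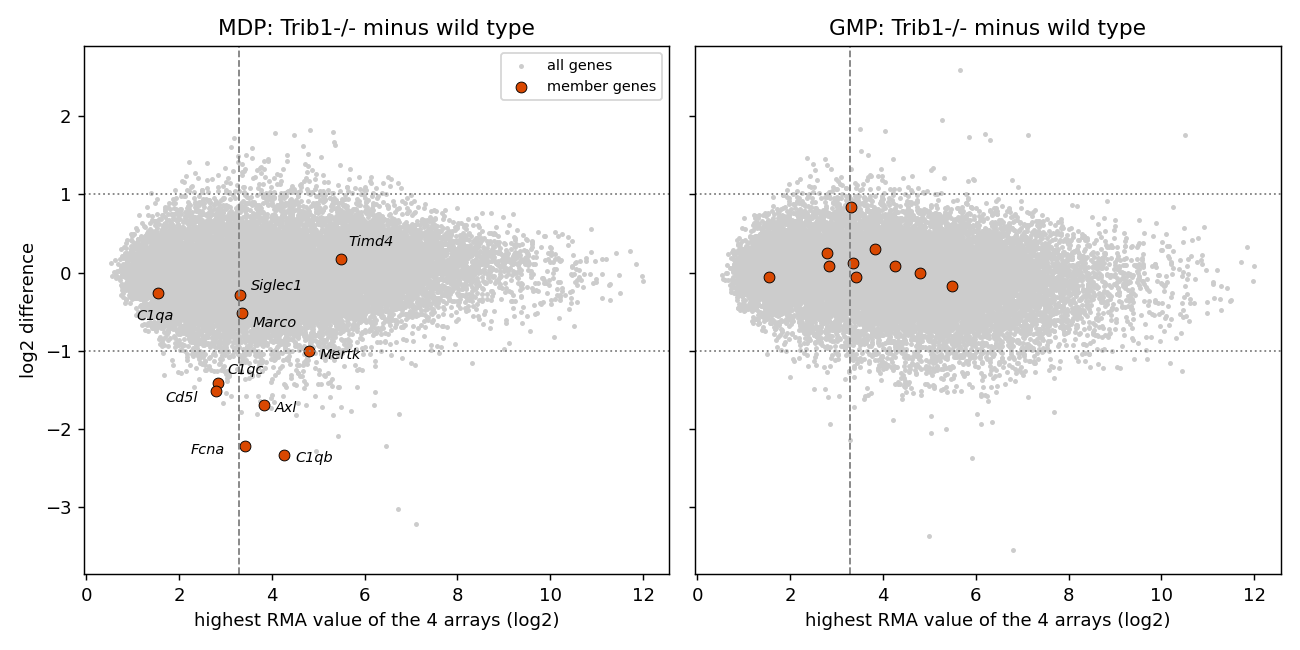
Log2 difference between Trib1-/- and wild type in MDP (left) and GMP (right) against the highest value of the 4 arrays, for all 18193 genes (grey) and the 10 genes (orange); the dashed line is the table median and dotted lines mark 2-fold. In MDP 6 of the 10 lie at or below the lower dotted line with C1qb (-2.33) and Fcna (-2.22) the lowest of them, whereas in GMP all 10 lie between the lines.

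The second question is how the genes differed between the progenitors. In wild type all 10 read higher in MDP than in GMP (52.5% of all genes did), 6 of them at least 2-fold: C1qb 5.02-fold, Axl 4.34-fold, Fcna 4.10-fold, C1qc 3.79-fold, Cd5l 3.63-fold and Mertk 2.06-fold. At least 2-fold higher were 3.26% of all genes, and 8.25% were at least 2-fold lower. The median over the 10 was 1.45, against 0.04 over all genes. With low values raised to the floor 1 gene, Mertk, was at least 2-fold higher (all genes 1.99%), and after cyclic loess its log2 difference of 1.04 was 0.998, short of 2-fold. This comparison shares the wild-type MDP array with the comparison of the MDP genotypes, so the values of both rest on that array. Between the knockout arrays none of the 10 was 2-fold apart (2.06% of all genes were at least 2-fold higher in knockout MDP and 2.84% lower), the median was 0.07 and the range ran from -0.26 (Siglec1) to 0.67 (Timd4). C1qc, at 0.42, was the next highest after Timd4.

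Other genes of uptake and complement, in 8 lists drawn up for this purpose with earlier results of these data known, showed few 2-fold differences between the MDP genotypes. Of 109 listed genes with a probe set, 76 reached the floor on an array. Mrc1 and Spic, 2 of the 76, were lower by 2-fold or more in knockout MDP, and 0 were higher by as much (1.53% and 1.1% of all genes that reached the floor). The median over the 76 was -0.04.

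Among 9 bridging molecules and ligands the median was -0.23, with none 2-fold apart by its representing probe set. Edil3 had another probe set at -1.16. Gas6, the bridging ligand of Axl and Mertk, read 3.49 in wild-type GMP, 3.58 in knockout GMP, 3.94 in wild-type MDP and 3.68 in knockout MDP. Its other probe set went the opposite way between the MDP genotypes, by 0.34. Pros1, which encodes protein S, read 6.20, 6.11, 6.58 and 6.97. Both thus differed by less than 2-fold between genotypes. The largest MDP differences were those of the galectin gene Lgals3 (-0.57), the chaperone gene Calr (0.55), the annexin gene Anxa1 (-0.54) and Cd47, which encodes a signal against uptake (0.41). Anxa1 and Cd47 each had another probe set of opposite sign (0.32 and -0.06). Of 18 other uptake receptors none was 2-fold apart, and the median was -0.08. The largest differences were Olr1 (0.73), Havcr1 (-0.54, with a probe set at 0.02), Cd68 (-0.49) and Cd300a (-0.43).

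For the 16 genes of engulfment and digestion the median was 0.21, and 0 of 16 were 2-fold apart in MDP. They include Crk (0.65, with a probe set at -0.05), an adaptor upstream of Rac, the endosome gene Rab5a (0.57) and the autophagy genes Uvrag (0.49) and Atg5 (-0.46). Among 13 regulators 1 was 2-fold lower. This was Spic, the factor of iron-recycling macrophages, which read 3.10, 3.79, 4.67 and 3.41, with a second probe set at -0.02. Bhlhe40 (-0.71), Maf (-0.59, with a probe set at 0.33) and the lipid-sensing receptor gene Pparg (-0.56) followed. The lipid-sensing nuclear receptor gene Nr1h3, which encodes LXR alpha, differed by 0.06 and Cebpa by 0.02.

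Of the listed complement genes, which leave out the 10, 5 genes of the classical list (median 0.27), 2 of the lectin and alternative list and 9 receptors and regulators (median -0.01) reached the floor, and none was 2-fold apart between the MDP genotypes. C1ra, which encodes a protease that binds C1q, read 2.98, 3.07, 3.37 and 3.50, and the other protease gene, C1s1, was below the floor on every array. Properdin (Cfp) read 3.34, 4.13, 5.68 and 5.50, high on both MDP arrays alike. C2 differed by 0.48, but its 3 probe sets ran from -0.49 to 0.48 and gave no direction. Cd93 differed by 0.27 and C1qbp by -0.16, each with another probe set of opposite sign (-0.33 and 0.29), and Cfp, at -0.18, had one at 0.26. Of the receptors and regulators, Cd46 differed by 0.34, and the integrin genes Itgax and Itgb2 by 0.31 and -0.20. The anaphylatoxin receptor genes C3ar1 and C5ar1 differed by -0.19 and -0.08, where C3ar1 had another probe set at 0.50. Of 6 sialic acid and lectin receptors above the floor (median -0.21), Mrc1 was 2-fold lower in knockout MDP (-2.22), while Siglech (-0.61), Siglecf (0.55) and Clec7a (-0.38) were not.

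Markers of resident macrophages other than the 10 genes were also lower in knockout MDP. Of 12 measured, 11 reached the floor, and their median was -1.44. In knockout MDP 7 of the 11 were lower by 2-fold or more: Vcam1 (-3.21), Slc40a1 (-3.03), Lpl (-2.29), Mrc1 (-2.22), Cd163 (-1.82), Hmox1 (-1.44) and Spic (-1.26). Among all genes that reached the floor 1.53% were. The list was drawn up with earlier results of these data known, so its count is not read against that share. Lpl, Hmox1 and Cd68 reached the floor on wild-type MDP alone, so they had to read higher there. Of the 7, 4 have another probe set short of 2-fold: Vcam1 (-0.83), Slc40a1 (-0.23), Lpl (-0.80) and Spic (-0.02). Summed as linear values, the 12 gave 269 in wild-type GMP, 260 in knockout GMP, 841 in wild-type MDP and 415 in knockout MDP. Vsig4 was below the floor on all arrays. Csf1r (-0.01), Cd68 (-0.49), Maf and Adgre1 (-0.80), which encodes F4/80, differed by less than 2-fold. The MDP markers summed to 311 in wild-type and 317 in knockout MDP, and the 4 monocyte markers measured to 980 and 975. Linear sums rest mostly on the highest genes, here Csf1r (7.82 and 7.81) for the MDP and F13a1 (9.34 and 9.37) for the monocyte markers. Csf1r also counts in the resident macrophage sum, and the sums include genes below the floor. The summed dendritic cell markers were 74.2 and 68.4, late neutrophil markers 71.9 and 74.0, erythroid markers 45.3 and 37.8, platelet markers 54.8 and 52.6, B cell markers 203 and 153, T cell markers 35.8 and 42.2, stromal and endothelial markers 159 and 157 and liver markers 54.0 and 44.2. Within these other lists no gene that reached the floor was 2-fold apart by its representing probe set. The largest differences were Vcan (-0.60), Ccr2 (0.30) and Fn1 (0.17) among monocyte markers, Siglech (-0.61), Itgax (0.31) and Zbtb46 (0.07) among dendritic cell markers, and Ngp (-0.52), S100a8 (-0.48) and Camp (0.44) among late neutrophil markers. Ccr2 had another probe set at 2.21 and Vcan one at 0.92. Platelet markers gave Vwf (0.33), Itga2b (-0.10) and Gp9 (-0.01), B cell markers Ms4a1 (-0.79), Cd79b (-0.69) and Ebf1 (-0.42), stromal and endothelial markers Kdr (-0.47), Pecam1 (-0.14) and Col1a1 (0.05), and liver markers Apoa1 (-0.51), Ttr (-0.23) and Alb (-0.05). Slc4a1 (-0.56) was the erythroid and Cd3e (0.22) the T cell marker that reached the floor. In the progenitor and GMP list Elane (-0.74), Ms4a3 (0.52) and Cd34 (0.34) differed most, and in the MDP list Flt3 (0.65), Cx3cr1 (-0.31) and Kit (0.26). Slc4a1 had other probe sets at -1.11 and 0.26. Kit (-0.46), Ttr (0.62), Ms4a1 (0.09), Ebf1 (0.07), Col1a1 (-0.15) and Zbtb46 (-0.12) each had another probe set of opposite sign. The progenitor and GMP markers summed to 1328 and 1261 in MDP, against 7420 and 6561 in GMP. The part of any of these cells in the low values of the 10 genes in knockout MDP was not tested.

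**Figure D4:**
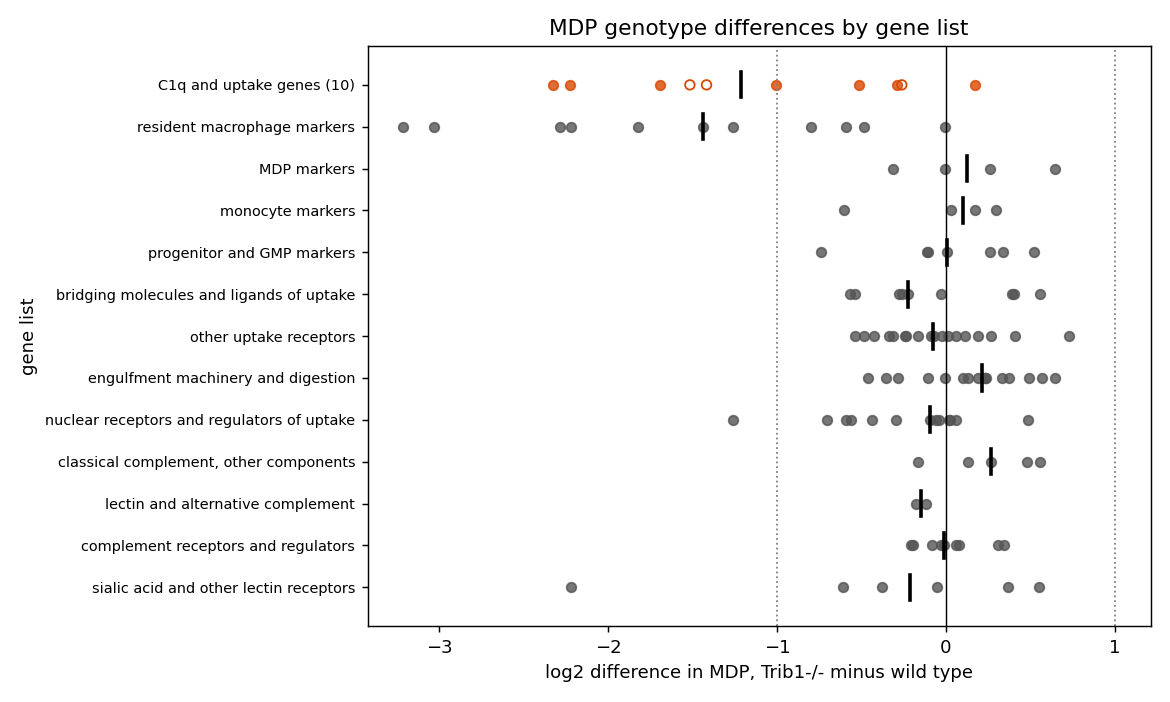
Log2 difference in MDP, Trib1-/- minus wild type, for the 10 genes (top; open circles are genes below the table median on all arrays), the listed genes that reached that median, and their medians (black bars); dotted lines mark 2-fold. Beside the top group, the resident macrophage markers are the list with several genes beyond -1, and the uptake and complement lists hold 2 such genes, Mrc1 and Spic, which are also among those markers.

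The genes whose pattern over the 4 arrays was most like the mean pattern of the 7 that reached the floor were ranked by the Euclidean distance of values centred on each gene's own mean, over 10924 genes and 4 arrays. The 8 nearest were Septin8 (distance 0.04), Duoxa2 (0.11), Cmpk2 (0.17), Ckmt1 (0.18), Prelid3a (0.18), Lrrc38 (0.19), Olfr78 (0.20) and Hbb-bh1 (0.20), where the median distance was 1.21. Septin8, the nearest, read 3.95, 4.16, 5.35 and 4.23. Each of the 8 read highest in wild-type MDP, which the ranking fixed in advance: the mean pattern was 0.92 there and negative on the other arrays. Of the 7 genes behind that pattern, 4 reached the floor on wild-type MDP alone, as did Cmpk2, Lrrc38 and Olfr78 among the 8. With 4 values per gene the likeness is a description only.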

How the data were processed

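Per the labels' protocols, Trizol was used for total RNA and the NuGEN Ovation kit, an amplification method for low input, for biotinylated cRNA. The authors made the deposited values with RMA, per the submitters' processing notes, of unstated version. These deposited values are read as log2, a scale inferred from their range (0.14 to 14.5). Because RMA equalises the distributions of arrays, total RNA per cell cannot be compared. Of 45101 probe sets, 64 controls were left out, 34945 had 1 gene symbol, 932 several and 9160 none. Only the first were named, and 34741 gene identifiers matched the RefSeq table, changing 0 symbols. Of 18193 genes, 11653 reached the floor. Differences of single arrays were formed for 4 comparisons and counted at 2-fold, with no test. The calculation was tested on simulated data. The members and lists were chosen with earlier results of these data known. Named from each list were the up to 4 genes (3 for marker lists) with the largest MDP genotype difference and all genes 2-fold apart. Other listed genes printed (Gas6, Pros1, Tyro3, C1ra, C1s1, C5ar1, Nr1h3, Cebpa, Csf1r, Adgre1 and Vsig4) were chosen for their role after their values were seen. Edil3 is printed for a probe set beyond 2-fold and F13a1 for its high values. Alternatives covered the floor, the probe set rule, cyclic loess (limma 3.58.1, 3 iterations), centring, 32 added to the linear values, and size rules of 1.5-fold and 4-fold. Listed genes with no probe set of 1 symbol are not analysed here.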

Additional observations from a re-analysis of the deposited data

How the results depend on the processing

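The counts of genes 2-fold apart among the 7 that reached the floor were 4 for the MDP genotypes, 4 for wild-type MDP against wild-type GMP, and 0 for the other comparisons. Of these 7, 4 reached the floor on wild-type MDP alone, so they had to read higher there. Counts and medians over the 7, here and below, are therefore no evidence of a difference. Of all 11653 genes that reached the floor, 178 were at least 2-fold lower in knockout than in wild-type MDP. At least 2-fold higher in wild-type MDP than in wild-type GMP were 485 of them. For the MDP genotypes the count was 1 with the floor at the 75th percentile (4.78) or with lower values raised to the median floor. It was 2 with probe sets averaged per gene (3 genes left at the floor) or at 4-fold, and 0 with 32 added to the linear values. The median of -1.01 over the 7 became -0.42 with the higher floor (2 genes left), -0.13 with values raised and -0.32 with 32 added. For wild-type MDP against wild-type GMP the count was 1 with the higher floor (2 genes left) or with values raised. It was 2 with the mean of probe sets (3 genes left) and 0 with 32 added. The median of 1.04 became 0.33 with values raised and 0.30 with 32 added. At 1.5-fold, 1 gene was apart between the GMP genotypes and 1 between the knockout progenitors. The share of all genes at that size is not given here. Cyclic loess gave 3 genes in each of the comparisons with 4, where Mertk fell short of 2-fold (-0.99 and 0.998), centring gave 4, and neither moved any of 40 single differences by more than the SD between probe sets. With no floor 6 of 10 genes were apart in each. Over all genes 1.45% were at least 2-fold lower in knockout than in wild-type MDP. At least 2-fold higher in wild-type MDP than in wild-type GMP were 3.26%. No difference of at least 2-fold changed sign under these settings. No paired analysis was possible because each group is 1 array. Signal limits what can be seen: 8 of the 10 genes were below the floor in knockout MDP and 8 in wild-type GMP. Of all genes, 57.0% were at or above it in knockout MDP and 57.5% in wild-type GMP.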

Other observations

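The 53 genes that read at least 2-fold higher in wild-type MDP than on each of the other 3 arrays were looked up after their values were seen. Beside 6 of the 10 genes described above they held 47 others. Of these, 6 were resident macrophage markers: Mrc1, which stood 2.22 above the next array, Lpl, Cd163 (1.82), Vcam1 (1.68), Slc40a1 (1.52) and Hmox1 (1.44). Emp1, which encodes an epithelial membrane protein (1.52), and the polarity gene Llgl2 (1.43) were also among the 47. The list also held Selenop, the gene of the plasma selenoprotein P, which read 7.30 in wild-type GMP, 7.26 in knockout GMP, 8.30 in wild-type MDP and 7.15 in knockout MDP, and Sparc, a matrix protein gene, at 3.09, 2.33, 4.25 and 3.14. Some of the 47, such as Fzd10 and Prss46, were below the floor on every array. Others, among them Lpl, Hmox1 and Sparc, reached it on wild-type MDP alone. The resident macrophage markers were listed with earlier results of these data known.

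Some probe sets held exactly the same value on a pair of arrays. The representing probe set of C1qb and the second of Axl were identical in wild-type GMP and knockout MDP, and the second of Marco in both MDP arrays. Over all probe sets 538 (1.19%) were identical between wild-type GMP and knockout MDP, against 126 to 253 for each of the other pairs. Among probe sets below the floor on every array the share for that pair was 2.27%.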
